A study of Mus musculus with 16 samples.

Results

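The 7 genes described here make, release, break down or sense sphingosine 1-phosphate (S1P). They are the receptor genes S1pr1, S1pr2 and S1pr3, the sphingosine kinase genes Sphk1 and Sphk2, the lyase gene Sgpl1 and the exporter gene Spns2. They were taken by symbol from the 38926 gene names of the table of bone regions and from the Lats2 table, and by Ensembl identifier from the Yap1/Taz lists of 21603 genes, and all 7 were found in each. RNA-seq of FACS-sorted C57BL/6 mouse bone endothelial cells (ECs) was deposited for 16 libraries as FPKM, the fragments on a gene divided by its length and by the size of the library. Metaphyseal ECs (mpECs, 3 libraries) and ECs of the diaphyseal marrow (bmECs, 3 libraries) were wild type for the genes studied and carried the Cdh5-mT/nG reporter, in which a Cdh5 genomic fragment drives fluorescent proteins. The Yap1/Taz groups carried loxP-flanked Yap1 and Wwtr1 (Taz) alleles at postnatal day 21, with 3 libraries positive for the tamoxifen-inducible Cdh5-CreERT2 transgene (Yap1/Taz iΔEC) and 3 Cre-negative controls. The Lats2 groups carried loxP-flanked Lats2 alleles, with 2 Cdh5-CreERT2-positive (Lats2 iΔEC) and 2 Cre-negative libraries. According to the methods all mice were 3 weeks old and the controls were littermates. Cdh5-CreERT2 acts in all ECs of the animal and not in bone alone, and the labels do not say which library came from which animal, so the p-values below measure the spread between these libraries.

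S1P is a phosphorylated lipid that ECs, red blood cells and platelets release into blood and lymph. The sphingosine kinases phosphorylate sphingosine, which ceramidases free from ceramide. Spns2 carries S1P out of ECs, whereas Sgpl1 cleaves it irreversibly and lipid phosphatases turn it back into sphingosine. S1pr1 couples to Gi proteins and is known for restraining sprouting and keeping EC junctions closed, while S1pr2 and S1pr3 also couple to Gq and G12/13 proteins.

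The endothelial markers Pecam1, Cdh5, Emcn, Kdr, Tek, Tie1, Erg and Esam were above 0 in all 16 libraries, and blood cell genes were abundant as well. The summed FPKM of 5 erythroid genes ranged from 17651 to 37700 in the libraries of bone regions, from 3277 to 4901 in the Yap1/Taz libraries and from 145 to 2544 in the Lats2 libraries. Reads recovered from the FPKM steps numbered 4733833 to 14770896 per library, and no pair of replicates differed by as little as counting noise. The targeted genes were checked first. Wwtr1 stood at 10.0, 9.88 and 10.3 FPKM in the Yap1/Taz controls and at 15.3, 19.6 and 19.5 FPKM in the libraries labelled Yap1/Taz iΔEC, a log2 fold change of 0.78 (adjusted p = 0.027). It was above 0 under all 15 alternatives and called in 9, and the call was lost without control replicate 2 (adjusted p = 0.0752) or 3 (0.0715) and without Yap1/Taz iΔEC replicate 2 (0.18) or 3 (0.144). With either of these Yap1/Taz iΔEC libraries left out, 0 genes at all were called as higher. Yap1 stood at 0.995 to 1.62 FPKM in the controls and at 0.989 to 1.43 FPKM in the libraries labelled Yap1/Taz iΔEC. The Yap1 groups overlapped (log2 fold change -0.04, adjusted p = 0.934), from 47 to 103 recovered reads per library. Neither gene was called as lower in the libraries that carry the deletion label. These libraries are therefore called by their label below, and every direction drawn from them rests on that label. Values for whole genes also hold exons outside a deleted part. Lats2 was 23.4 and 24.0 FPKM in its controls and 19.2 FPKM in both Lats2 iΔEC libraries (log2 fold change -0.29, adjusted p = 0.125). The gene Gm49361 on the same strand covers 42.4% of the bases in the Lats2 exons. Wwtr1 was higher in this comparison too, with 53.8 and 58.9 FPKM in the controls and 83.3 and 92.5 FPKM in Lats2 iΔEC. The log2 fold change was 0.63 (adjusted p = 0.026) and stayed between 0.44 and 0.71 under all 13 alternatives.

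S1pr1 was the most abundant of the 7 genes in the libraries of bone regions and of the Lats2 animals, and Spns2 in the Yap1/Taz libraries. FPKM is per length, so genes can be ordered within a library. In mpECs the mean FPKM was 97.3 ± 17.5 (SD, n = 3) for S1pr1, 6.23 ± 1.13 for Spns2, 6.17 ± 1.10 for Sgpl1, 2.24 ± 0.443 for Sphk1, 2.09 ± 0.615 for S1pr2, 1.33 ± 0.607 for Sphk2 and 0.874 ± 0.339 for S1pr3. The ranges of Spns2 and Sgpl1 overlapped there, as did those of each neighbouring pair from Sphk1 down to S1pr3. In bmECs the order was the same, but the range of Spns2 lay above that of Sgpl1 and the range of Sphk1 above that of S1pr2.

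In the Yap1/Taz controls Spns2 came first with 55.6 ± 2.15 FPKM (SD, n = 3), followed by S1pr1 with 32.4 ± 2.69, Sgpl1 with 15.2 ± 2.54 and Sphk2 with 9.40 ± 0.731. S1pr2, S1pr3 and Sphk1 were under 5 FPKM in every library of both Yap1/Taz groups. The order was the same in the libraries labelled Yap1/Taz iΔEC, and in both groups S1pr3 and Sphk1 were the only neighbours with overlapping ranges. In the Lats2 controls S1pr1 came first with 169 ± 2.53 FPKM (SD, n = 2) and Spns2 second with 66.1 ± 2.01. Sgpl1 with 9.94 ± 0.686 and Sphk2 with 9.65 ± 0.563 overlapped in these controls and in the Lats2 iΔEC libraries. The last pair in the order was Sphk1 before S1pr3 in the controls, where their ranges overlapped, and S1pr3 before Sphk1 in Lats2 iΔEC, where they did not.

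The tables were normalized separately, so a ratio within a library was used to set the levels side by side. S1pr1 was 5.14 to 18.3 times Spns2 in FPKM in the libraries of bone regions and 2.53 to 4.26 times Spns2 in the Lats2 libraries. In the Yap1/Taz libraries it was 0.511 to 0.637 times Spns2. Relative to Cdh5, the gene of the EC junction protein VE-cadherin, Spns2 was 0.0337 to 0.0729 in the libraries of bone regions, 0.484 to 0.566 in the Yap1/Taz libraries and 0.225 to 0.282 in the Lats2 libraries. The 3 sets thus held S1pr1 and Spns2 in different proportion, and set, sort and table cannot be told apart here.

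**Figure D1:**
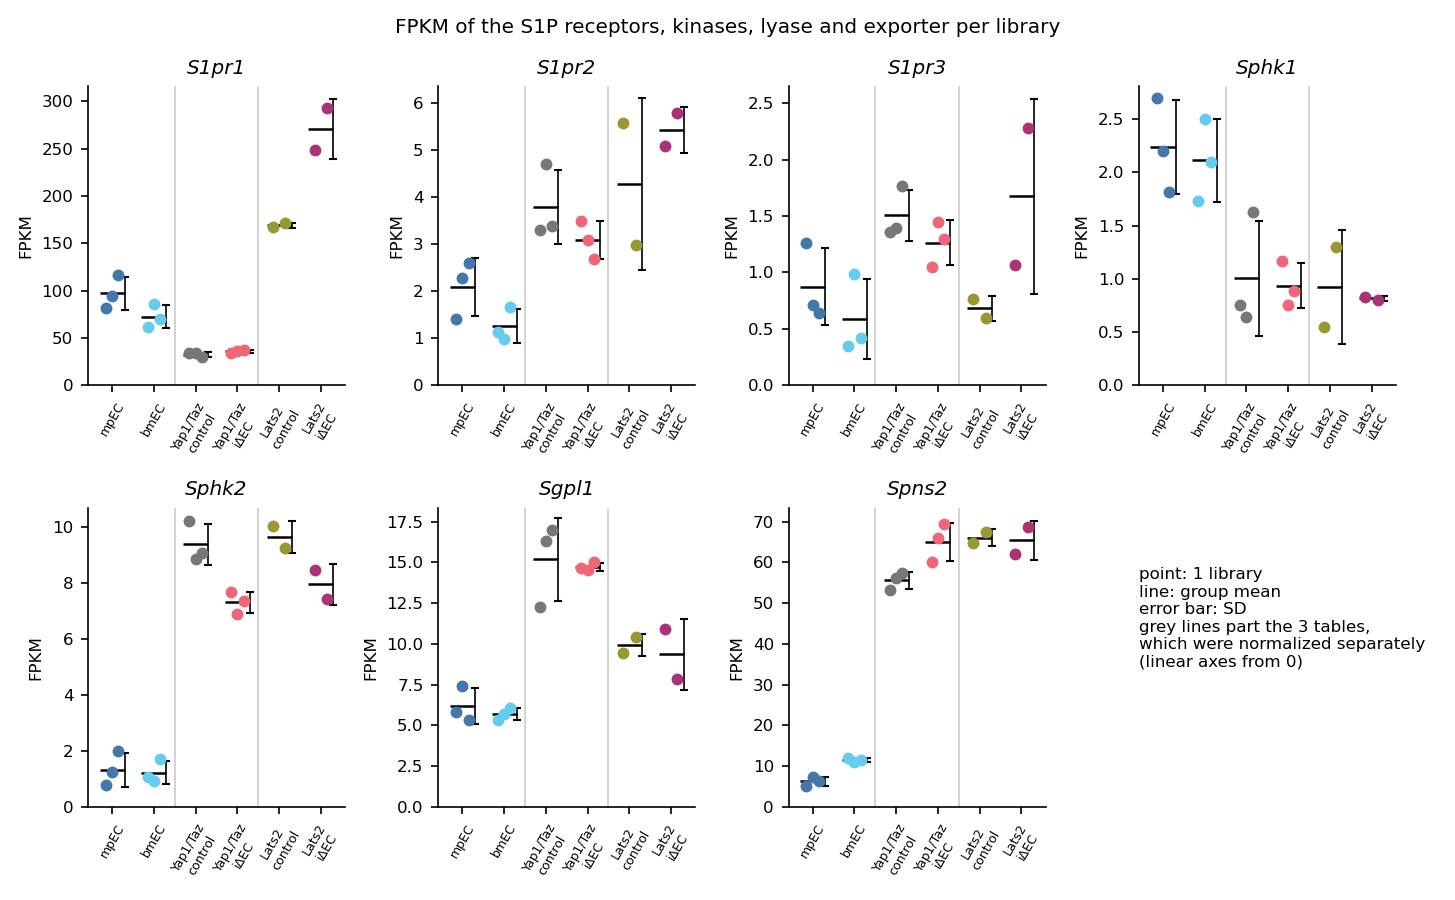
FPKM (linear axes from 0) of the 7 S1P genes in each library by group, with points for libraries, lines for group means and bars for the SD (n = 3, or 2 in the Lats2 groups). Spns2 lay between 11.0 and 12.0 FPKM in the 3 bmEC libraries, above the 5.03 to 7.29 FPKM of the mpEC libraries, and S1pr1 was higher in both Lats2 iΔEC libraries than in either control.

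S1pr1 held most of the receptor transcripts in all 16 libraries. Its share of the summed FPKM of S1pr1 to S1pr5 was 90.4% to 93.5% in mpECs, 89.9% to 94.2% in bmECs, 92.5% to 94.3% in the Lats2 controls and 95.3% to 95.5% in Lats2 iΔEC. In the Yap1/Taz controls it was 55.3% to 60.7%, and in the libraries labelled Yap1/Taz iΔEC 59.5% to 64.6%. S1pr4, a receptor of lymphocytes and myeloid cells, came second except in Lats2 iΔEC replicate 2, where S1pr2 held 1.88% and S1pr4 1.86%. Its share was 28.5% to 34.4% in the 6 Yap1/Taz libraries and 1.86% to 7.48% in the other 10. S1pr4 itself was 16.5 to 18.3 FPKM in the Yap1/Taz libraries and 3.32 to 6.90 FPKM in the others. S1pr2 held 1.07% to 7.98% and S1pr3 0.331% to 3.33% of the receptor transcripts over all libraries. S1pr5, a receptor of natural killer cells and oligodendrocytes, stayed under 0.9 FPKM and was listed at 0 in 5 libraries.

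**Figure D2:**
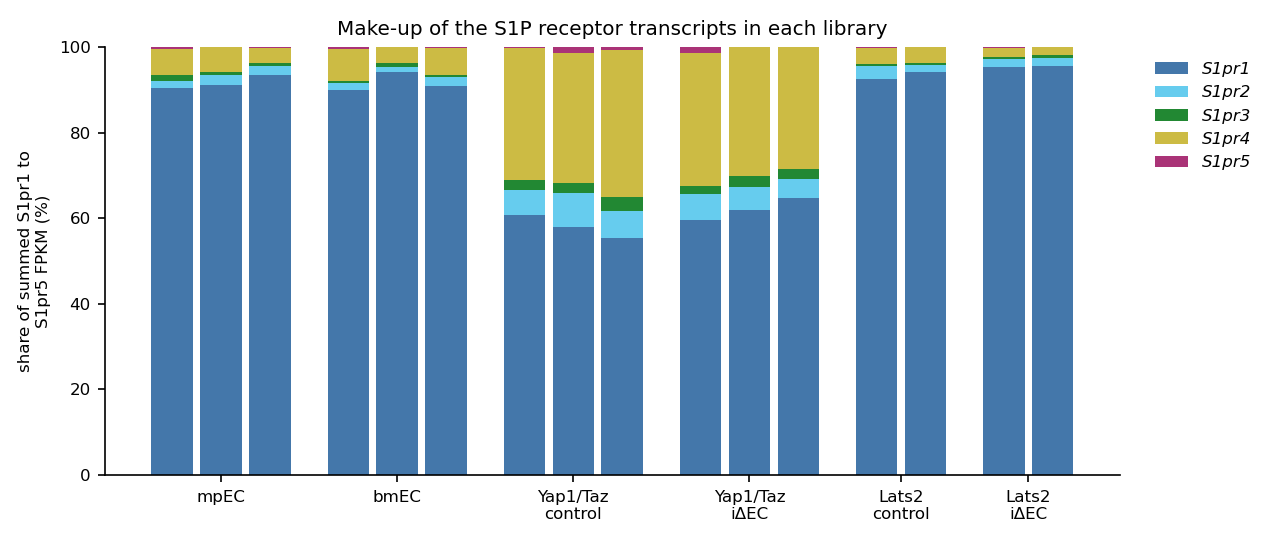
Share (%) of each S1P receptor gene in the summed FPKM of S1pr1 to S1pr5, with 1 bar per library. S1pr1 makes up 89.9% to 95.5% of the bars of the bone regions and the Lats2 groups and 55.3% to 64.6% of those of the Yap1/Taz groups, where S1pr4 makes up 28.5% to 34.4%.

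Bone regions were compared first. Each comparison was fitted with limma on log2(FPKM + 1) over genes that averaged at least 1 FPKM, with two-sided p-values adjusted by the Benjamini-Hochberg method over all tested genes, and a gene was called at an adjusted p under 0.05. Fold changes are on this log2 scale, which understates the change of low genes. Of the 6 S1P genes tested between bmECs and mpECs, only Spns2 was called, against 23.5% of all 11422 genes tested. Only Spns2 had groups that did not overlap, against 41.3% of all genes. S1pr3 was under the filter.

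Spns2, which transports S1P across the EC membrane, was 5.03, 7.29 and 6.36 FPKM in the mpEC libraries and 12.0, 11.0 and 11.4 FPKM in the bmEC libraries. All 3 bmEC libraries lay above all 3 mpEC libraries. The log2 fold change was 0.80 (SE 0.13, 95% interval 0.50 to 1.10, adjusted p = 0.0036), and the ratio of the means was 1.84. The values rest on 252 to 297 recovered reads per mpEC library and 404 to 546 per bmEC library. The ratio of Spns2 to Cdh5 was also apart, with 0.0337 to 0.0360 in mpECs and 0.0623 to 0.0729 in bmECs. The call was made under all 15 alternatives, with adjusted p between 0.002 and 0.0168.

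The gene lies on the minus strand at chr11:72451638-72489904 (GRCm38, GENCODE M21), and 3.21% of its exon bases overlap the opposite-strand gene Mybbp1a. The RefSeq promoter of Spns2 is shown because Spns2 differed between regions, and that of Plpp3 because this lipid phosphatase gene, described below, was called in all 3 comparisons. Each runs from 250 bases before to 50 bases after a RefSeq start on GRCm38.p6, read on the strand of the gene. Spns2 is chr11:72474978-72475277 on the minus strand, with its start 14877 bases inside the GENCODE span, and Plpp3 is chr4:105157097-105157396 on the plus strand. Capitals mark matches on either strand to CATTCC (TEAD), ACGTG (hypoxia response) or CACCC (KLF).
Spns2: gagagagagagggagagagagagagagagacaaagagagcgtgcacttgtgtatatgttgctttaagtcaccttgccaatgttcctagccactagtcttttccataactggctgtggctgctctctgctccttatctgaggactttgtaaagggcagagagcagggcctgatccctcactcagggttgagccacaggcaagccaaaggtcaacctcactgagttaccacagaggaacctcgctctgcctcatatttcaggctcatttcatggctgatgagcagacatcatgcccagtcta
Plpp3: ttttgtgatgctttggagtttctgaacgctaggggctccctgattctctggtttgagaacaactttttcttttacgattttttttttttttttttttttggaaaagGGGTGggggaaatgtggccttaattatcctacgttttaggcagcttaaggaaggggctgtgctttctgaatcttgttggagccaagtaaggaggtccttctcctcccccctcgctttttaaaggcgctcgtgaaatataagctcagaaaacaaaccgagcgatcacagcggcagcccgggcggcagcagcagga
The Spns2 window holds none of these letters, and that of Plpp3 holds a single KLF match, read as GGGTG on the strand shown. Of all 32851 promoter windows, 14.7% hold the TEAD letters, 19.6% the hypoxia letters and 57.5% the KLF letters. Promoters were found for 6 of the 7 genes, in 11 windows, with S1pr1 the gene not matched. Of these windows 1, upstream of Sphk1, holds the TEAD letters, 5 hold the hypoxia letters and 8 the KLF letters. Sphk1 alone has 5 of the 11 windows, and some of these overlap, so a match can be counted in more than 1 window and the counts cannot be set against the shares of all windows.

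S1pr1, the main Gi-coupled S1P receptor of ECs, was 81.4, 94.5 and 116 FPKM in mpECs and 61.8, 85.8 and 69.8 FPKM in bmECs. The groups overlapped, and the log2 fold change of -0.42 (95% interval -0.78 to -0.05) was not called (adjusted p = 0.0956). It was called as lower in bmECs by limma-voom on recovered reads, where the fold change was -0.61 (adjusted p = 0.0206) and the median of all genes was -0.20. The ratio of S1pr1 to Spns2, which does not depend on library size, was 12.96 to 18.3 in mpECs and 5.14 to 7.81 in bmECs, without overlap, and it also holds the difference in Spns2. The ratio of S1pr1 to Cdh5 overlapped, with 0.466 to 0.616 in mpECs and 0.375 to 0.536 in bmECs.

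S1pr2, a receptor that couples to several G proteins, was 1.41, 2.28 and 2.60 FPKM in mpECs and 1.12, 0.977 and 1.66 FPKM in bmECs. The fold change of -0.45 (95% interval -0.90 to -0.002) had an adjusted p of 0.137, and without mpEC replicate 1 it was -0.62 (adjusted p = 0.0489). S1pr3 was 0.643 to 1.26 FPKM in mpECs and 0.352 to 0.990 FPKM in bmECs, from 13 to 70 recovered reads per library.

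The enzymes were close between regions. Sphk1, the mainly cytosolic kinase, was 1.81 to 2.70 FPKM in mpECs and 1.73 to 2.50 FPKM in bmECs, and its log2 fold change was -0.06 (95% interval -0.41 to 0.30, adjusted p = 0.83). Sphk2, the kinase found also in nuclei and mitochondria, was 0.778 to 1.98 FPKM and 0.915 to 1.70 FPKM, a fold change of -0.05 (95% interval -0.57 to 0.46, adjusted p = 0.892). Sgpl1, the lyase, was 5.30 to 7.41 FPKM and 5.32 to 6.06 FPKM, a fold change of -0.09 (95% interval -0.39 to 0.21, adjusted p = 0.659). The groups overlapped for all 3, and each of these fold changes changed sign when a single library was left out. The intervals leave room for changes of up to 0.57 on the log2 scale in Sphk2, which rests on 36 to 83 recovered reads per library.

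Of 61 other genes of S1P and ceramide metabolism and of receptor signalling 47 were tested between the regions, with 15 called as higher and 3 as lower in bmECs, beside 13% and 10.5% of all genes. All 4 tested ceramidases, the enzymes that free sphingosine, were higher in bmECs, with a median log2 fold change of 1.04 beside 0.00 over all genes, and none changed sign under an alternative. The alkaline ceramidase gene Acer3 was 32.8, 32.1 and 28.9 FPKM in mpECs and 84.0, 82.4 and 68.4 FPKM in bmECs, a fold change of 1.29 (SE 0.10, adjusted p = 0.00013). The neutral ceramidase gene Asah2 was 4.91 to 8.93 FPKM in mpECs and 15.7 to 19.4 FPKM in bmECs, a fold change of 1.19 (adjusted p = 0.0036). Acer2 rose by 0.89 (adjusted p = 0.020) and the lysosomal Asah1 by 0.54 (adjusted p = 0.0065). Acer2 was called in 12 of 15 alternatives, with adjusted p up to 0.0591. Its call was lost without mpEC replicate 1 (adjusted p = 0.0571) and without bmEC replicate 2 (0.0504), among others. That of Asah1 was lost under endothelial scaling (0.0545).

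Among 4 tested phosphatases, Plpp3 (Ppap2b in 2 of the tables), an ecto-phosphatase of S1P and lysophosphatidic acid, was the single call. Plpp3 was 140, 183 and 180.3 FPKM in mpECs and 462, 446 and 408 FPKM in bmECs, a fold change of 1.39 (SE 0.12, adjusted p = 0.00018). Its close relative Plpp1 (Ppap2a) was 611 to 674 FPKM and 533 to 668 FPKM, with overlapping groups and a fold change of -0.05 (95% interval -0.30 to 0.20). The S1P phosphatase gene Sgpp2, named after its values were seen, was under the filter. It was 0.223, 0.150 and 0.309 FPKM in mpECs, from 6 to 12 recovered reads, and 2.89, 1.03 and 1.08 FPKM in bmECs, from 39 to 95 reads, without overlap. Acer1, Degs2 and Smpd3, also under the filter and named after their values were seen, were lower in bmECs without overlap. The ceramidase gene Acer1 was 0.124 to 0.200 FPKM in mpECs (3 to 6 reads) and 0 to 0.0700 FPKM in bmECs (0 to 2 reads). Degs2 was 0.611 to 0.893 FPKM (19 to 22 reads) and 0.0592 to 0.238 FPKM (1 to 7 reads). Smpd3 was 0.613 to 0.681 FPKM (35 to 40 reads) and 0.0616 to 0.283 FPKM (3 to 12 reads). These values lie near the floor and were not tested. The share of all genes under the filter without overlap was not counted.

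In ceramide synthesis 5 of 12 tested genes were called, all higher in bmECs, beside 13% of all genes called as higher. They were Cers4 (fold change 0.92), Ormdl3 (0.87), Sptlc2 (0.66), Cers6 (0.51) and Degs1 (0.31). Sptlc2 is a subunit of the serine palmitoyltransferase that starts the path, Ormdl3 restrains that enzyme, and Cers4 and Cers6 are ceramide synthases. Of 8 genes that form or use ceramide in other ways, Ugcg, the glucosylceramide synthase gene, rose from 7.03 to 9.98 FPKM in mpECs to 24.9 to 29.9 FPKM in bmECs, a fold change of 1.48 (adjusted p = 0.00031). Smpd1, the acid sphingomyelinase gene, rose by 0.57 and was called in 14 of 15 alternatives (adjusted p up to 0.0624). Sgms2, a sphingomyelin synthase gene, was lower by a fold change of -1.16 (adjusted p = 0.023) and was called in 12 of 15. The call of Sgms2 was lost without bmEC replicate 2 (adjusted p = 0.0752) or 3 (0.0668). Cers6 was called in 7 of 14 alternatives, with the call lost without mpEC replicates 2 and 3 and bmEC replicates 2 and 3 in turn (adjusted p = 0.0869 to 0.111). Degs1 was called in 5 of 15 alternatives, and of the single libraries only bmEC replicate 3 could be left out without losing the call (adjusted p = 0.0664 to 0.136 for the rest).

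Of the 14 genes of receptor coupling, Gnai1 (0.45), Gna11 (0.42) and Gna12 (0.50) were called as higher and Gnai2 as lower (-0.43, adjusted p = 0.0045) in bmECs, and 4 of 14 is near the 23.5% called among all genes. The call of Gnai2 was lost under endothelial scaling (adjusted p = 0.123). Gnai1 was called in 5 of 14 alternatives, with bmEC replicate 1 the only library whose removal kept the call (adjusted p = 0.0617 to 0.113 for the rest). The call of Gna11 was lost without mpEC replicate 1 or 3 or bmEC replicate 1 or 2 (adjusted p = 0.0537 to 0.0808), under endothelial scaling (0.0983) and with limma-voom (0.0901), and that of Gna12 without bmEC replicate 1 (0.0512) and with limma-voom (0.087). Lpar4, a receptor for lysophosphatidic acid, was 8.38, 10.7 and 11.5 FPKM in mpECs and 2.47, 4.62 and 2.17 FPKM in bmECs, a fold change of -1.49 (adjusted p = 0.0025). S1pr4 was not called (-0.25, adjusted p = 0.312), nor was Klf2, the flow-responsive factor gene, with a fold change of -0.10 (adjusted p = 0.806).

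Markers of other cells also differed between the regions. The summed FPKM of 5 osteoblast genes was 108 to 521 in mpECs and 40.8 to 52.3 in bmECs, with 2 of 4 tested genes called as lower, and that of 4 chondrocyte genes was 12.8 to 16.4 and 0.0116 to 0.0682, with Col2a1 at 0 in all bmEC libraries. The summed FPKM of 5 T cell genes was 10.6 to 20.2 in mpECs and 23.5 to 29.4 in bmECs, and the erythroid, neutrophil and platelet sums overlapped. Of the 8 endothelial genes 3 were higher and 3 lower in bmECs. Among the genes used for endothelial scaling (Cdh5, Tie1, Erg and Esam), Tie1 was lower (-0.70, adjusted p = 0.010) and Erg higher (0.40, adjusted p = 0.026). Cdh5 and Esam were not called. The part of these marker differences in the differences above was not tested. In bulk samples fewer cells of a type and less RNA per cell cannot be told apart.

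**Figure D3:**
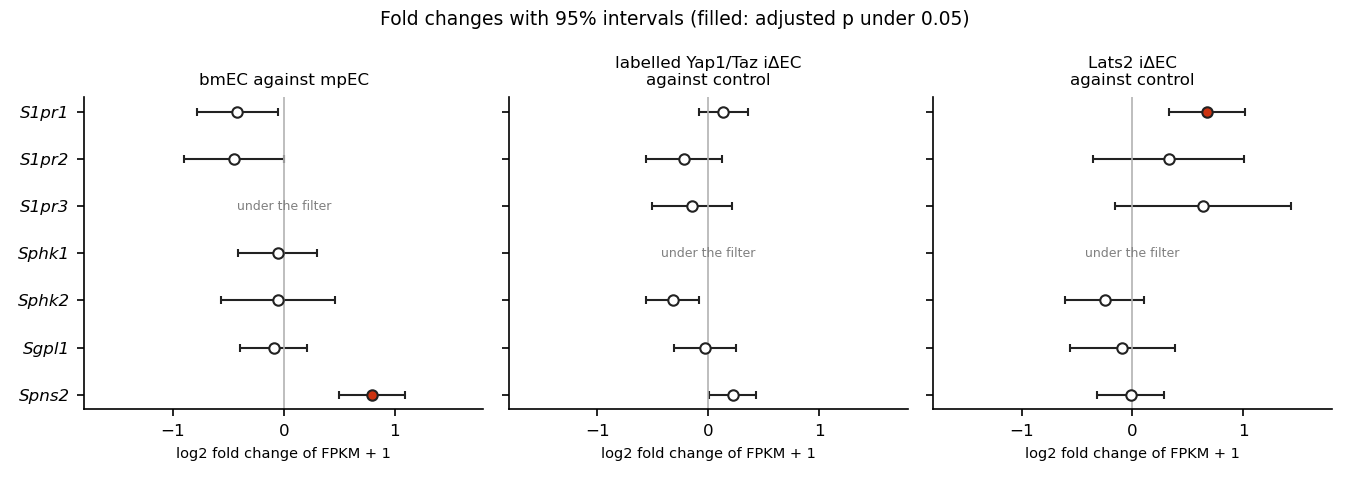
Log2 fold changes of FPKM + 1 for the 7 S1P genes in the 3 comparisons, with 95% intervals and filled points for an adjusted p under 0.05. Spns2 in bmECs (0.80) and S1pr1 in Lats2 iΔEC (0.67) are the filled points, and genes under the filter are marked.

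The Yap1/Taz comparison asked how bone ECs change when the Hippo pathway coactivators are lost. None of the 6 S1P genes tested with limma was called, against 1.31% of all 11320 genes (0.883% higher in the labelled libraries), while 2 of them, Sphk2 and Spns2, had an unadjusted p under 0.05, as had 17.9% of all genes. limma-voom on recovered reads called none of them either. These 2 were also the genes whose groups did not overlap, beside 23.6% of all genes. Sphk1 was under the filter.

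Sphk2 was 10.2, 8.87 and 9.09 FPKM in the controls and 7.67, 6.91 and 7.36 FPKM in the libraries labelled Yap1/Taz iΔEC. The 3 labelled libraries lay below the 3 controls, with a fold change of -0.32 (SE 0.11, 95% interval -0.56 to -0.08, adjusted p = 0.161). When libraries were scaled to the endothelial genes Cdh5, Tie1, Erg and Esam, it was -0.63 and was called (adjusted p = 0.0204), and that scaling moved the median of all genes to -0.31. Of the exon bases of Sphk2 (chr7:45709467-45718002, minus strand), 21.9% overlap Dbp and Rpl18 on the other strand, and no source says whether the counting used strand.

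Spns2 was 53.2, 56.2 and 57.4 FPKM in the controls and 60.1, 65.9 and 69.3 FPKM in the libraries labelled Yap1/Taz iΔEC. The fold change was 0.22 (SE 0.09, 95% interval 0.01 to 0.43, adjusted p = 0.253) and turned to -0.12 under endothelial scaling. Endothelial genes were themselves higher in these libraries, with a sum of 8 genes of 445 to 458 FPKM in the controls and 518 to 622 FPKM in the labelled libraries, although none was called. The ratio of Spns2 to Cdh5 overlapped, with 0.508 to 0.566 in the controls and 0.484 to 0.533 in the labelled libraries.

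S1pr1 was 33.9, 34.1 and 29.3 FPKM in the controls and 33.7, 35.9 and 37.4 FPKM in the labelled libraries, a fold change of 0.14 (95% interval -0.09 to 0.36) that turned to -0.20 under endothelial scaling. S1pr2 was 3.29 to 4.70 FPKM and 2.69 to 3.50 FPKM, with a fold change of -0.22 (95% interval -0.57 to 0.13), and S1pr3 was 1.36 to 1.77 FPKM and 1.05 to 1.45 FPKM, with a fold change of -0.15 (95% interval -0.51 to 0.22). Sgpl1 was 12.3 to 17.0 FPKM and 14.6 to 15.01 FPKM, a fold change of -0.03 (95% interval -0.31 to 0.25). Sphk1 stayed between 0.639 and 1.62 FPKM. The groups overlapped for each of these genes.

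Of the 48 other pathway genes tested, 2 were called, beside 1.31% of all genes. Both were phosphatases and both were higher in the libraries labelled Yap1/Taz iΔEC. Plpp1 was 86.6, 75.5 and 82.8 FPKM in the controls and 146, 157 and 145 FPKM in the labelled libraries, a fold change of 0.86 (SE 0.09, adjusted p = 0.0117). The labelled libraries lay above the controls, and the call was lost without Yap1/Taz iΔEC replicate 2 (adjusted p = 0.0711), without replicate 3 (0.0983) and with no filter (0.0679). Each of these fits called 0 genes as higher and 1 as lower. On its exons 25.8% of bases overlap the opposite-strand gene Mtrex. Plpp3 was 65.9, 68.4 and 71.0 FPKM in the controls and 88.3, 104 and 104 FPKM in the labelled libraries, a fold change of 0.52 (SE 0.10, adjusted p = 0.0423). It was called in 6 of 15 alternatives, and under endothelial scaling the fold change was 0.18 (adjusted p = 0.252). Leaving out any library except Yap1/Taz iΔEC replicate 1 ended the call, with adjusted p of 0.0662 to 0.218. Of the 5 marker genes of megakaryocytes and platelets Ppbp was called as higher, and 2 of 3 tested osteoblast genes as lower, with sums of 23.2 to 30.6 FPKM in the controls and 4.49 to 12.7 FPKM in the labelled libraries. The part of these was not tested.

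The Lats2 comparison asked how bone ECs change when the kinase that restrains Yap1 and Taz is lost, although Lats2 itself was not called as lower in the libraries labelled Lats2 iΔEC. S1pr1 was called among the 6 S1P genes tested, against 21.8% of all 12451 genes tested. Of these 6, 3 had groups that did not overlap, beside 68.2% of all genes. Sphk1 was under the filter, at 0.547 to 1.30 FPKM.

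S1pr1 was 167 and 171 FPKM in the controls and 248 and 293 FPKM in the Lats2 iΔEC libraries, from 2536 to 4446 recovered reads. Both Lats2 iΔEC libraries lay above both controls, with a fold change of 0.67 (SE 0.14, 95% interval 0.33 to 1.01, adjusted p = 0.0279) and a ratio of the means of 1.60. The ratio of S1pr1 to Spns2 was 2.53 and 2.59 in the controls and 4.003 and 4.26 in Lats2 iΔEC, and that of S1pr1 to Cdh5 was 0.640 and 0.730 in the controls and 0.899 and 1.06 in Lats2 iΔEC. The fold change stayed above 0 under all 13 alternatives, between 0.37 and 0.79, but it was called in 7. It was lost without control replicate 1 (adjusted p = 0.227), control replicate 2 (0.206) and Lats2 iΔEC replicate 2 (0.0596), under quantile normalization (0.37, adjusted p = 0.0621), endothelial scaling (0.48, adjusted p = 0.126) and with no filter (0.0604). Without either control no gene at all was called by limma, with 2724 and 2878 genes at an unadjusted p under 0.05. The study placed S1pr1 in a panel of tip EC genes read from these libraries, so the call is not independent evidence of a direction for that panel. S1pr1 lies on the minus strand at chr3:115710433-115715072, and no other gene overlaps its exons.

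The other receptors were less abundant than S1pr1, and their fold changes were less certain. S1pr3 was 0.762 and 0.5998 FPKM in the controls and 1.06 and 2.28 FPKM in Lats2 iΔEC, from 16 to 51 reads, with a fold change of 0.63 (95% interval -0.16 to 1.43, adjusted p = 0.204). S1pr2 was 5.57 and 2.99 FPKM in the controls and 5.08 and 5.78 FPKM in Lats2 iΔEC, with overlapping groups and a fold change of 0.33 (95% interval -0.35 to 1.01, adjusted p = 0.417).

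Spns2 was 64.6 and 67.5 FPKM in the controls and 62.0 and 68.8 FPKM in Lats2 iΔEC. The groups overlapped, with a fold change of -0.02 (95% interval -0.32 to 0.28, adjusted p = 0.933). Sphk2 was 10.1 and 9.26 FPKM in the controls and 8.47 and 7.44 FPKM in Lats2 iΔEC, without overlap, and its fold change of -0.25 (95% interval -0.61 to 0.10) was not called (adjusted p = 0.247). Sgpl1 was 9.46 and 10.4 FPKM in the controls and 10.9 and 7.82 FPKM in Lats2 iΔEC, a fold change of -0.09 (95% interval -0.57 to 0.38, adjusted p = 0.744).

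Of 47 other pathway genes tested, 1 was called as higher and 10 as lower in Lats2 iΔEC, beside 11.8% and 9.98% of all genes. All 4 tested phosphatases were called, and 3 of them were lower. Sgpp1, an S1P phosphatase of the endoplasmic reticulum, was 12.8 and 10.4 FPKM in the controls and 4.94 and 4.35 FPKM in Lats2 iΔEC, a fold change of -1.15 (adjusted p = 0.0137). Plpp3 was 370.3 and 377 FPKM in the controls and 193 and 187 FPKM in Lats2 iΔEC, a fold change of -0.97 (SE 0.12, adjusted p = 0.0108), and Plpp1 was 503 and 512 FPKM and then 347 and 260.5 FPKM, a fold change of -0.75 (adjusted p = 0.0382). Plpp2 (Ppap2c), a further member of the same family, was 13.1 and 16.9 FPKM in the controls and 34.5 and 45.7 FPKM in Lats2 iΔEC, a fold change of 1.36 (adjusted p = 0.0143). None of the 4 changed sign under an alternative. With all libraries kept, the calls of Sgpp1, Plpp3 and Plpp2 were made under every alternative. Plpp1 was called in 7 of 13 alternatives, and some of its losses came with all libraries kept. Without either control all 4 calls were lost, as was every call by limma, so these losses do not mark single genes. Those of Sgpp1, Plpp1 and Plpp2 were also lost without Lats2 iΔEC replicate 2. With single libraries left out, the fold changes ranged from -1.29 to -1.01 for Sgpp1 and -0.96 to -0.55 for Plpp1. They ranged from -0.99 to -0.95 for Plpp3 and 1.16 to 1.56 for Plpp2.

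Acer3 was lower by a fold change of -1.16 (adjusted p = 0.013), while the other ceramidases were not called, with -0.92 for Acer2 (adjusted p = 0.0714), -0.64 for Asah2 (adjusted p = 0.056) and -0.13 for Asah1 (adjusted p = 0.505). Ugcg was 71.3 and 58.4 FPKM in the controls and 23.2 and 21.3 FPKM in Lats2 iΔEC, a fold change of -1.50 (adjusted p = 0.0089). Ormdl3 (-0.87) and Sptlc2 (-0.68) of ceramide synthesis and Gna12 (-0.87) of receptor coupling were also lower. These 5 calls too were lost without control replicate 1 (adjusted p = 0.129 to 0.17) and without control replicate 2 (0.11 to 0.199), and those of Acer3 (0.0551) and Sptlc2 (0.0765) without Lats2 iΔEC replicate 2.

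Mfsd2b, the S1P exporter of red blood cells and platelets, was 1.37 and 2.91 FPKM in the controls and 0.257 and 0.117 FPKM in Lats2 iΔEC, these from 5 and 3 recovered reads, a fold change of -1.36 (adjusted p = 0.0437). Cd69, a protein of activated lymphocytes that binds S1pr1 and pulls it from the surface, was 4.09 and 4.98 FPKM and then 1.63 and 0.496 FPKM, a fold change of -1.47 (adjusted p = 0.032). The call of Mfsd2b was lost without control replicate 1, where every call was lost, and without Lats2 iΔEC replicate 1 or 2. Without control replicate 2 Mfsd2b was under the filter. The call of Cd69 was lost without either control, as was every call, and without Lats2 iΔEC replicate 2. With single libraries left out, the fold changes ranged from -1.72 to -1.27 for Mfsd2b and -1.88 to -1.07 for Cd69. Blood cell markers were lower in the same libraries. The summed FPKM of 5 erythroid genes was 1827 to 2544 in the controls and 145 to 1067 in Lats2 iΔEC, that of 5 platelet genes 29.7 to 110.1 and 9.45 to 12.1, with Gp9 and Gp1bb at 0 in both Lats2 iΔEC libraries, and that of 5 macrophage genes 545 to 651 and 70.8 to 293. For B cells the sum was 78.0 to 89.5 and 23.0 to 29.4, with 4 of 5 genes called as lower, for T cells 12.8 to 13.4 and 3.40 to 5.42, and for neutrophils 1622 to 2416 and 594 to 731. The sum over 4 smooth muscle genes was 5.87 to 11.6 FPKM in the controls and 32.5 to 47.3 FPKM in Lats2 iΔEC, and that over 5 perivascular genes 31.0 to 37.8 and 53.3 to 62.6. The endothelial sum overlapped, with 1864 to 1990.1 FPKM and 1914 to 1976 FPKM, but Pecam1 was higher (0.85) and Kdr (-0.95) and Tek (-1.35) lower. The part of these in the differences above, that of S1pr1 included, was not tested.

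Several genes were called in 2 or 3 comparisons, which share no library. Plpp3 was called in all 3, with 1.39 in bmECs against mpECs, 0.52 in the libraries labelled Yap1/Taz iΔEC and -0.97 in Lats2 iΔEC. Its Yap1/Taz call was made in only 6 of 15 alternatives and was lost under endothelial scaling (0.18, adjusted p = 0.252). Acer3 (1.29 and -1.16), Ugcg (1.48 and -1.50), Ormdl3 (0.87 and -0.87), Sptlc2 (0.66 and -0.68) and Gna12 (0.50 and -0.87) were higher in bmECs and lower in Lats2 iΔEC. Of all tested genes 23.5% were called between regions and 21.8% between the Lats2 groups. How many of all genes were called in both with opposite signs was not counted. The pattern is therefore not shown to be particular to this pathway. Plpp1 was called in the libraries labelled Yap1/Taz iΔEC (0.86) and in Lats2 iΔEC (-0.75), and no member of the S1P group was called in more than 1 comparison. The targeted gene Wwtr1 was called as higher in the libraries labelled Yap1/Taz iΔEC (0.78) and in Lats2 iΔEC (0.63).

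**Figure D4:**
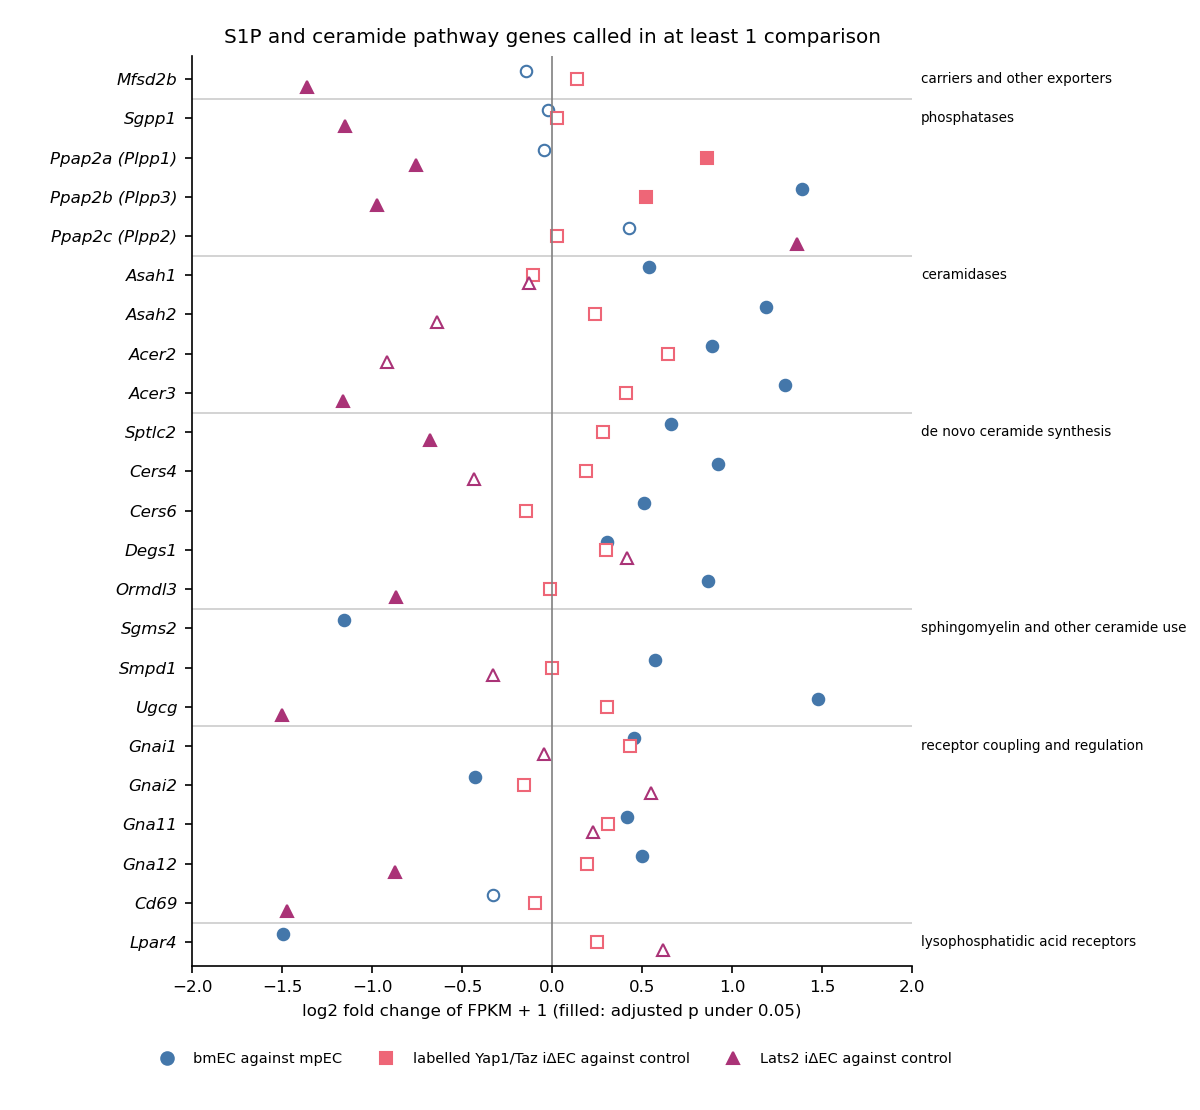
Log2 fold changes of FPKM + 1 of the S1P and ceramide pathway genes called in at least 1 comparison, by list, with a symbol for each comparison and filled symbols for an adjusted p under 0.05. Plpp3 (Ppap2b) is filled in all 3 comparisons, at 1.39, 0.52 and -0.97, and the 4 ceramidases are filled on the right in bmECs against mpECs.

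The genes whose values moved most like those of each member were found over all 16 libraries, each set against the mean of its own comparison, among 4950 genes that averaged 5 FPKM or more in every comparison. These correlations describe libraries that share tables and group differences. S1pr1 was most like Pde4b (r = 0.924), Sparcl1 (0.919) and Rai14 (0.912). Spns2 was most like Shisa5 (r = 0.944), Tgoln1 (0.943) and Slco2b1 (0.939). For the others the closest gene was Men1 for Sphk2 (r = 0.881), Ermp1 for Sgpl1 (0.880), Zw10 for S1pr2 (0.845), Ssb for S1pr3 (0.840) and Gpn3 for Sphk1 (0.736).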

How the data were processed

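Paired-end reads of stranded total RNA libraries were aligned by the authors with TopHat on GRCm38, HTSeq 0.6.1 gave counts per gene, and FPKM values were deposited for each library. The step from counts to FPKM is not given in the sources used here. Genes averaging at least 1 FPKM were tested per comparison on log2(FPKM + 1) with limma 3.58.1 (R 4.3.3, group term, mean-variance trend). The members and all gene lists were chosen with earlier results of these data known. The genes named are the members, the called genes of the S1P, ceramide and receptor lists written from general knowledge, the targeted genes, cell type markers and, for each member, the 3 genes with the highest correlation. Reads were recovered from the steps of the FPKM values with gene lengths of GENCODE M21, and 62.7% to 70.2% of the values up to 20 reads lay within 0.02 of a whole number, where chance gives 4%. Alternatives were another pseudocount (0.1), no filter, a filter at 5 FPKM, quantile, median-of-ratios and endothelial scaling, limma without a trend, limma-voom on recovered reads, a replicate block, each library left out, and the thresholds of the methods (adjusted p under 0.01, absolute log2 fold change over 0.5). All scripts that test across genes were tested on simulated data. Python 3.11.15 with pandas 2.3.3 was used for tables.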

Additional observations from a re-analysis of the deposited data

How the results depend on the processing

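Of 250 refits of the 18 member results, 225 kept their direction and side of the threshold. Most of these are results that were not called and stayed so. Of the called results, Spns2 between regions was called in 15 of 15 refits and S1pr1 between the Lats2 groups in 7 of 13. The number of S1P genes called between bmECs and mpECs was 2 with limma-voom and with the replicate block, and 1 to 2 when single libraries were left out. Between the Yap1/Taz groups it was 1 with endothelial scaling. Between the Lats2 groups it was 0 with the thresholds of the methods, with no filter, with quantile normalization and with endothelial scaling, and 0 to 1 when single libraries were left out. The share of all genes called between regions was 11.7% with the thresholds of the methods, 11.2% with no filter and 15.4% with endothelial scaling. Between the Yap1/Taz groups it was 0.00883% with those thresholds, 0.00623% with no filter, 2.35% with the filter at 5 FPKM, 21.7% with endothelial scaling, 0.15% without a trend, 3.15% with limma-voom, and 0.00884% (without Yap1/Taz iΔEC replicate 2) to 2.59% when single libraries were left out. Between the Lats2 groups it was 2.06% with those thresholds, 7.01% with no filter, and 0% (without either control) to 21.6% when single libraries were left out. Higher genes made up 55.2% of the calls between regions and 26.9% with limma-voom, 67.6% between the Yap1/Taz groups and 3.05% with endothelial scaling (57.3% with limma-voom), and 54.1% between the Lats2 groups, 36.1% with endothelial scaling and 38.5% with limma-voom. Endothelial scaling moved the median of all genes to -0.31 (Yap1/Taz) and -0.16 (Lats2), and limma-voom to -0.20 (regions) and -0.14 (Lats2).

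With endothelial scaling of the Yap1/Taz groups S1pr1 turned to -0.20 and Spns2 to -0.12. With quantile normalization Sphk1 (0.0344) and Sphk2 (0.0683) turned between regions. When single libraries were left out, the region values ranged from -0.15 to 0.0442 for Sphk1, -0.23 to 0.14 for Sphk2 and -0.18 to 0.0298 for Sgpl1. The Yap1/Taz values ranged from -0.17 to 0.0527 for Sgpl1 and -0.14 to 0.0773 for Yap1, and the Lats2 values from -0.0327 (without control replicate 2) to 0.69 for S1pr2, -0.31 to 0.12 for Sgpl1 and -0.0903 to 0.0577 for Spns2. The cause was not tested. Of the pathway genes, 8 of 18 region calls were made under every alternative, 0 of 2 Yap1/Taz calls and 0 of 11 Lats2 calls. With all libraries kept, 7 of the Lats2 calls were made under every alternative, those of Sgpp1, Plpp3, Plpp2, Acer3, Ormdl3, Ugcg and Gna12. Plpp1 was called in 7 of 13 alternatives, Sptlc2 in 9 of 13, Mfsd2b in 6 of 11 and Cd69 in 8 of 12. A sample left alone in a group was assumed to vary like the rest.

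Replicate numbers are shared between groups, but same-numbered libraries did not deviate together in every pair. The correlations of their deviations were 0.31, 0.09 and 0.10 between regions, -0.18, -0.12 and -0.16 between the Yap1/Taz groups and 0.07 between the Lats2 groups, so the numbers were not taken as pairs, and not every library correlated best with its own number. With the replicate block the calls went from 1481 higher and 1201 lower to 1597 and 1475 between regions, from 100 and 48 to 29 and 16 (0.398% of genes) between the Yap1/Taz groups, and from 1468 and 1243 to 1457 and 1198 between the Lats2 groups. S1pr1 between regions was called under the block (adjusted p = 0.0386), and Plpp3 between the Yap1/Taz groups was not (adjusted p = 0.0941).

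Over all libraries the lowest read numbers were those of S1pr3 and Sphk1, with 13 to 70 and 13 to 159 recovered reads per library. In the libraries of bone regions Sphk2 had fewer reads than Sphk1, with 36 to 83 against 68 to 159.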
